A study of Mus musculus with 6 samples.

Results

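The ATF4 amino acid stress genes described here are Atf4, Ddit3, Trib3, Chac1, Asns, Ddit4, Sesn2, Psat1, Phgdh and Slc7a11. They were read from undifferentiated mouse induced pluripotent stem cells (iPSCs) through every array probe set whose annotation names 1 of these genes alone. These are 10 of the 18193 genes that have at least 1 unshared probe set, measured by 21 of 45037 probe sets. A further 2 probe sets that name Phgdh together with Gm8096 or Gm6756 were left out. Each of the 6 samples is 1 iPSC clone on 1 array. Clones 1, 2 and 3 are (−)/(+) iPSCs, reprogrammed without 3i and then maintained with it, and clones 4, 5 and 6 are (+)/(+) iPSCs, which received 3i in both phases. 3i is a mixture of CHIR99021 (an inhibitor of GSK3), PD184352 (of MEK) and SU5402 (of the FGF receptor). All clones derive from embryonic fibroblasts of Nanog-EGFP transgenic mice, infected with retroviruses for Oct3/4, Sox2, Klf4 and c-Myc and grown on feeder cells with LIF, so every sample was under 3i when its RNA was taken and no sample without it was analysed here. Whether feeder cells were removed before the RNA was taken is not given in the sources used here, and the passage is given only as a range for all experiments, not for each clone.

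ATF4 is a transcription factor of the integrated stress response. When amino acids run short or the endoplasmic reticulum is under stress, kinases phosphorylate the translation factor eIF2α, most protein synthesis slows, and the Atf4 mRNA is translated more. The protein then binds C/EBP-ATF response elements, usually together with a C/EBP partner, and switches on genes that make, import or spare amino acids and genes that damp the response or, when it lasts, favour cell death. The arrays measure mRNA and not the ATF4 protein.

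The response element was searched for in the promoters of these genes because it is the site that ATF4 binds. The core TGATGNAA, read on both strands, was looked for in the RefSeq promoter windows of mouse build GRCm38.p6, from 250 bases before the gene start to 50 bases after it. All 10 genes had a window, and 4 of them (40%) held the core, against 4.51% of 27025 genes with a window. The share was 2.64% of 9104 tested genes, a set without Slc7a11, which held the core but was too dim to be tested. The 4 genes were Asns, Chac1, Slc7a11 and Trib3, which are established targets of ATF4, so the share is a description of the choice of genes. The windows of the other 6 genes, Atf4 and Psat1 among them, held no match, which says nothing about ATF4 binding elsewhere. In the sequences below, capitals mark the core or its reverse complement. Asns carries it 23 bases before its start (chr6:7693210-7693459, minus strand), Chac1 193 bases before (chr2:119350992-119351241, plus strand), and Slc7a11 66 and 47 bases before, in opposite orientations (chr3:50443614-50443863, minus strand). In Trib3 it begins at base 15 of the gene, and only the 30 bases around it are shown (chr2:152344028-152344057, minus strand).
Asns: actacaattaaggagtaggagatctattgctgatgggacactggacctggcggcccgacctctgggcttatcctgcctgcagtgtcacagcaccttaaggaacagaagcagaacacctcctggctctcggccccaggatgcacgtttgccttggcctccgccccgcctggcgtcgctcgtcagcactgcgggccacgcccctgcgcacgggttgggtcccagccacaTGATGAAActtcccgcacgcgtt
Chac1: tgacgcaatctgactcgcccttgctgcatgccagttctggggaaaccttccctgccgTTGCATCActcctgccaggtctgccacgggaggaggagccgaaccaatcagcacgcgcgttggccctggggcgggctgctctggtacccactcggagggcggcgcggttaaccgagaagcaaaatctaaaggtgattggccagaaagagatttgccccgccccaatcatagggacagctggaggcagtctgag
Slc7a11: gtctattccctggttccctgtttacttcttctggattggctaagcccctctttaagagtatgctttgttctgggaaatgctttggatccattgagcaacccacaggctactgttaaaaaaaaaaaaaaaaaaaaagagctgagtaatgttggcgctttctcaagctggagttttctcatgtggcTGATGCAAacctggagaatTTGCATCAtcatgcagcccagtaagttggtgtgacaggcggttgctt
Trib3: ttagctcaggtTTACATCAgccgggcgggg

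The values are MAS 5.0 signals on a linear scale, which the authors had scaled so that the mean of each array without its highest and lowest 2% of probe sets was the same on every array. The array medians were still 74.3 to 75.7 in the (−)/(+) clones, against 64.1 to 70.2 in the (+)/(+) clones. The 3′ to 5′ signal ratio of Gapdh, a sign of RNA integrity, was 0.821 to 0.866, and that of Actb was 1.56 to 1.77. In both ratios clone 1 lay within the range of the other clones, at 0.825 and 1.61. All 14 pluripotent cell markers were bright enough to be tested. Their summed signals were 135189, 143875 and 144881 in clones 1, 2 and 3, against 152169, 150347 and 158394 in clones 4, 5 and 6. Of these 14 markers 1 was called higher in the (+)/(+) clones by limma and 0 lower, where 2.96% of all tested genes were called. Fibroblast markers, which feeder cells also express, summed to 35182, 43923 and 45003 in clones 1, 2 and 3, against 23153, 26909 and 25816 in clones 4, 5 and 6. Of 18 tested fibroblast markers 9 were lower in the (+)/(+) clones and 0 higher, and their part in the results below was not tested. In bulk samples, fewer cells of a type and less RNA per cell cannot be told apart. The number of arrays limits the precision. No source used here names a hybridisation batch, so whether batch and group coincide is not known and a batch effect could not be examined.

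The first question was whether iPSCs that received 3i during reprogramming differed in the ATF4 genes from those that did not. No difference was detected. Of the 10 genes, 9 had a probe set bright enough to be tested (mean log2 signal above the median of the array), with 18 tested probe sets in all. In limma, 0 of 9 genes and 0 of 18 probe sets passed an adjusted p of 0.05, and 0 of 9 had an unadjusted p under 0.05. Over all tested genes the share called was 2.96%, that with an unadjusted p under 0.05 was 20.9%, and over all tested probe sets the share called was 3.12% (1.35% higher and 1.77% lower). With so low a background, a count of 0 of 9 is close to what the array gave as a whole. The signals of the (+)/(+) and (−)/(+) clones overlapped for all 9 genes, while they did not overlap for 26.3% of all tested genes and 27.1% of all tested probe sets. Differences are given as log2 fold changes of signal + 16, (+)/(+) over (−)/(+), where the added 16 shrinks the change of dim probe sets. They ran from -0.39 to 0.17, with a median of -0.02 against -0.05 over all tested genes. With the arrays scaled to a common median these medians were 0.13 and, over all tested probe sets, 0.10. The 95% intervals of all 9 genes lay within a 2-fold change in either direction, and those of 7 of 9 within a 1.5-fold change, so smaller differences could have been missed.

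**Figure D1:**
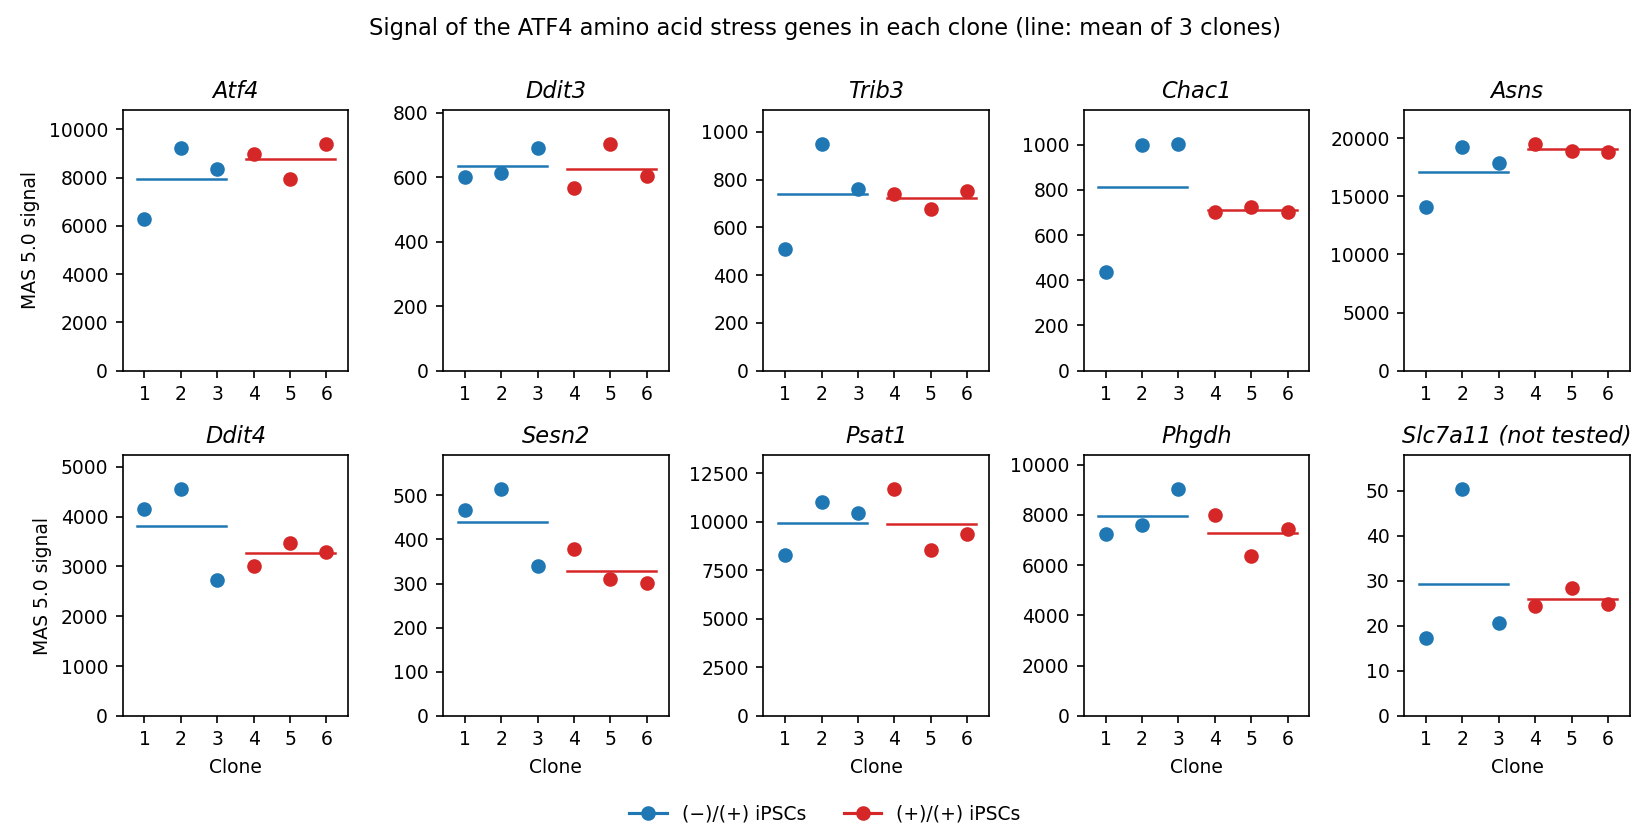
MAS 5.0 signal (linear scale, vertical axes starting at 0) of the brightest probe set of each of the 10 genes in clones 1 to 6, blue for (−)/(+) and red for (+)/(+) iPSCs, with a line at the mean of 3 clones. The groups overlap in every gene, and clone 1 is the lowest point for Atf4, Trib3, Chac1, Asns and Psat1 among the tested genes.

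Atf4 itself had signals far above the array median in every clone. Its brightest probe set had signals of 6297, 9230 and 8357 in clones 1, 2 and 3, against 8989, 7947 and 9387 in clones 4, 5 and 6. The groups overlapped, and clone 1 was the lowest. The means were 7961 ± 1506 and 8774 ± 743 (SD, n = 3 each), a log2 fold change of 0.15 with a 95% interval from -0.14 to 0.45 (adjusted p = 0.539, limma). Another Atf4 probe set gave 0.09 (adjusted p = 0.751, limma) and also had its lowest signal in clone 1, at 4731 against 5336 to 7196. The remaining Atf4 probe set was near the background, with signals of 2.52 to 9.60, and was not tested by limma (exact permutation test over clones, two-sided, p = 0.7, where 0.1 is the smallest p possible).

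The regulators downstream of ATF4 did not pass either. Ddit3 encodes CHOP, a transcription factor that promotes cell death when stress persists. Its brightest probe set had signals of 601, 612 and 690 in the (−)/(+) clones, against 567, 702 and 605 in the (+)/(+) clones, a narrow range in which no clone stood apart. The log2 fold change was -0.02 (95% interval -0.32 to 0.27). The dimmer Ddit3 probe set did not follow it across the clones (r = -0.04 over 6 clones), with its highest signal in clone 1, 288, and 126 to 167 in the others. Trib3 encodes a pseudokinase that binds ATF4 and restrains it. Its signals were 510, 948 and 763 in clones 1, 2 and 3, against 740, 677 and 752 in clones 4, 5 and 6. Both extremes of Trib3 were (−)/(+) clones, and the means, 740 ± 220 and 723 ± 40.3 (SD, n = 3 each), were close, with a log2 fold change of 0.01 (95% interval -0.43 to 0.44). The other Trib3 probe set gave -0.10 and also had its lowest and highest signals in clones 1 and 2, at 348 and 587.

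Chac1, whose product breaks down glutathione, varied most between the (−)/(+) clones. Its signals were 439, 998 and 1002 in clones 1, 2 and 3, against 704, 726 and 701 in clones 4, 5 and 6. The (+)/(+) clones lay together between the low clone 1 and the high clones 2 and 3. The SD of the log2 values was 0.67 among the (−)/(+) clones and 0.03 among the (+)/(+) clones. The log2 fold change was -0.10 (95% interval -0.69 to 0.49, adjusted p = 0.862, limma). Without clone 1 it was -0.48 (adjusted p = 0.0568, limma), and scaling of the arrays to a common median turned it to 0.06.

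Asns, asparagine synthetase, had signals far above the array median in every clone. Its signals were 14064, 19291 and 17836 in clones 1, 2 and 3, against 19490, 18948 and 18813 in clones 4, 5 and 6. Clone 1 was again the lowest, and the other clones lay close to each other. The means were 17064 ± 2698 and 19084 ± 359 (SD, n = 3 each), a log2 fold change of 0.17 (95% interval -0.07 to 0.41, adjusted p = 0.388, limma). Without clone 1 it was 0.04. The other Asns probe set followed it closely (r = 0.96 over 6 clones) with a log2 fold change of 0.16.

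The enzymes of serine synthesis did not pass the test. Phgdh catalyses the first step of the pathway and Psat1 the next. Psat1 had signals of 8305, 11043 and 10470 in the (−)/(+) clones, against 11671, 8557 and 9390 in the (+)/(+) clones, with clone 1 lowest by a small margin over clone 5. Its means were 9939 ± 1444 and 9873 ± 1612 (SD, n = 3 each), and its log2 fold change was -0.01 (95% interval -0.31 to 0.29). Phgdh had 7250, 7618 and 9017 in the (−)/(+) clones, against 8011, 6354 and 7439 in the (+)/(+) clones. Here clone 5 and not clone 1 was the lowest, and the log2 fold change was -0.13 (95% interval -0.38 to 0.12). All 4 tested Phgdh probe sets were on the same side, from -0.16 to -0.06, and the brightest was at -0.21 with quantile normalization, -0.24 with arrayWeights and 0.03 with a common median.

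Ddit4 and Sesn2 restrain mTORC1, the kinase complex that couples amino acid supply to growth. Ddit4 (also called REDD1) had signals of 4150, 4545 and 2728 in clones 1, 2 and 3, against 3016, 3473 and 3293 in clones 4, 5 and 6, so that clones 1 and 2 were high and clone 3 was the lowest of all. Its log2 fold change was -0.19 (95% interval -0.56 to 0.18). Sesn2, a leucine sensor, had the lowest adjusted p of these genes. Its signals were 466, 513 and 339 in the (−)/(+) clones, against 377, 311 and 300 in the (+)/(+) clones, where clone 3 overlapped with the (+)/(+) clones. The means were 440 ± 90.3 and 329 ± 41.7 (SD, n = 3 each), a log2 fold change of -0.39 (95% interval -0.78 to 0.01, adjusted p = 0.246, limma). The dimmer Sesn2 probe set gave -0.01, with its highest signal in a (+)/(+) clone, so the lower value rests on 1 of 2 probe sets.

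Slc7a11, the cystine transporter that supplies cysteine for glutathione, was near the background. Its probe sets had signals of 17.3 to 50.3 and 2.35 to 19.2, both too low to be tested by limma, with groups that overlapped (exact permutation test over clones, two-sided, p = 1 and p = 0.8, where 0.1 is the smallest p possible).

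**Figure D2:**
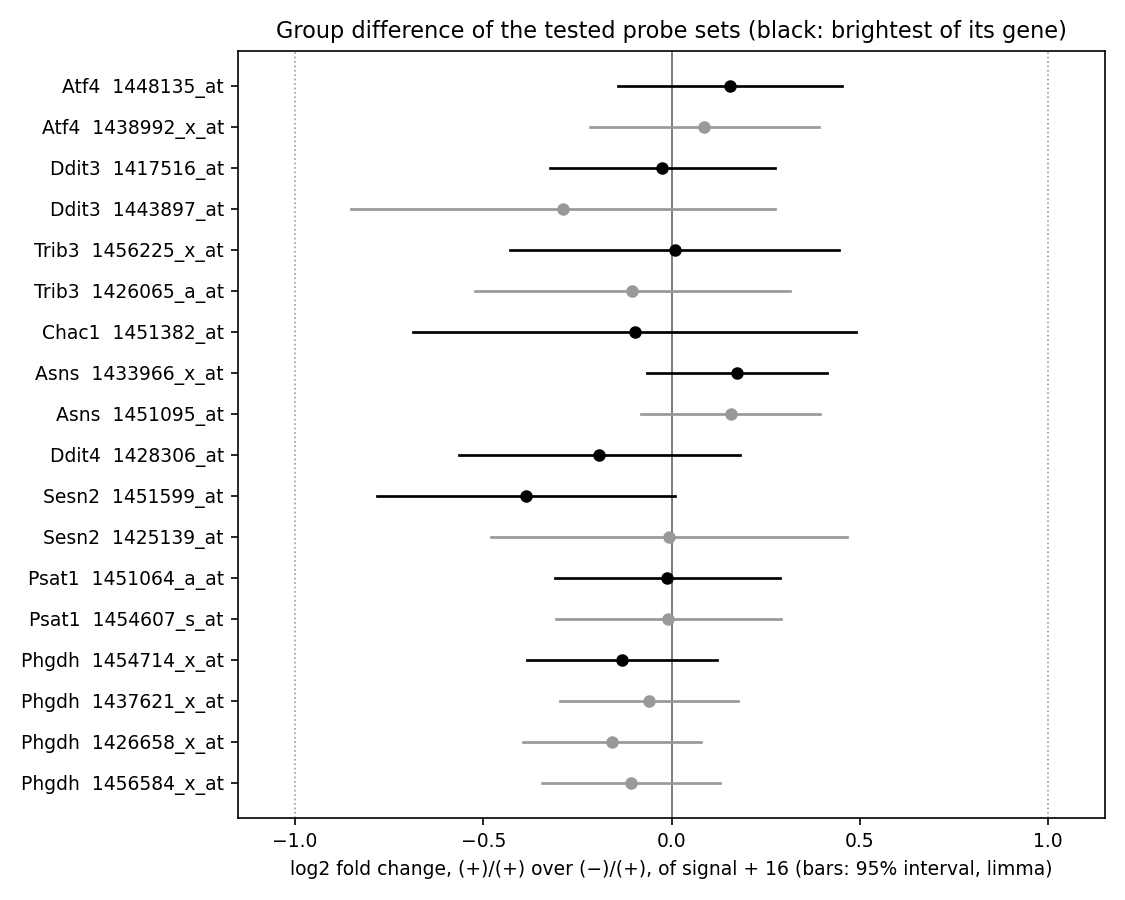
Log2 fold change of signal + 16, (+)/(+) over (−)/(+), of the 18 tested probe sets (horizontal axis, bars are 95% intervals from limma, black for the brightest probe set of a gene and grey for the others, dotted lines at a 2-fold change). All 18 intervals lie within a 2-fold change, and the values run from -0.39 (Sesn2) to 0.17 (Asns).

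The second question was how these genes vary between clones. Among the tested genes, 5 of 9 had their lowest signal in clone 1, against 16.5% of all tested genes. They were Atf4, Trib3, Chac1, Asns and Psat1, a choice made after the values were seen, and all 9 of their tested probe sets had their lowest signal in clone 1. On the log2 scale of signal + 16, clone 1 lay below the mean of the other 5 clones by an amount that corresponds to 45.3% for Chac1, 33.1% for Trib3, 28.1% for Atf4, 25.4% for Asns and 18.3% for Psat1. Measured instead from the median of the 6 clones, a shift of clone 1 at least as low was found in 0.904% of tested genes for Chac1. The share was 2.20% for Trib3, 3.12% for Atf4, 3.77% for Asns and 10.2% for Psat1. It was 33.0% for Phgdh, 41.5% for Ddit3, 87.4% for Ddit4 and 91.4% for Sesn2. As the 5 genes were chosen for a low clone 1, their shares are a description and no test. The other members did not share the low signal of clone 1. Clone 1 was 4.96% below the others for Ddit3 and 5.09% for Phgdh, and it was 1.23 times the others for Ddit4 and 1.28 times for Sesn2. With the arrays scaled to a common median, all 9 probe sets of the 5 genes were still lowest in clone 1, and with quantile normalization 8 of 9 were, alternatives that were added after the data were seen. Over all tested members the count of genes lowest in clone 1 was 6 of 9 with a common median and 5 of 9 with quantile normalization, and that of probe sets was 9 of 18 as reported, 11 of 18 with a common median and 9 of 18 with quantile normalization. The genes were not all the same. The brightest Ddit3 probe set was lowest in clone 1 under both alternatives, while the dimmer Ddit3 probe set was highest there. The brightest Psat1 probe set was lowest in clone 5 with quantile normalization. Clone 1 is 1 library of 1 clone, so its low signals have no replicate.

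**Figure D3:**
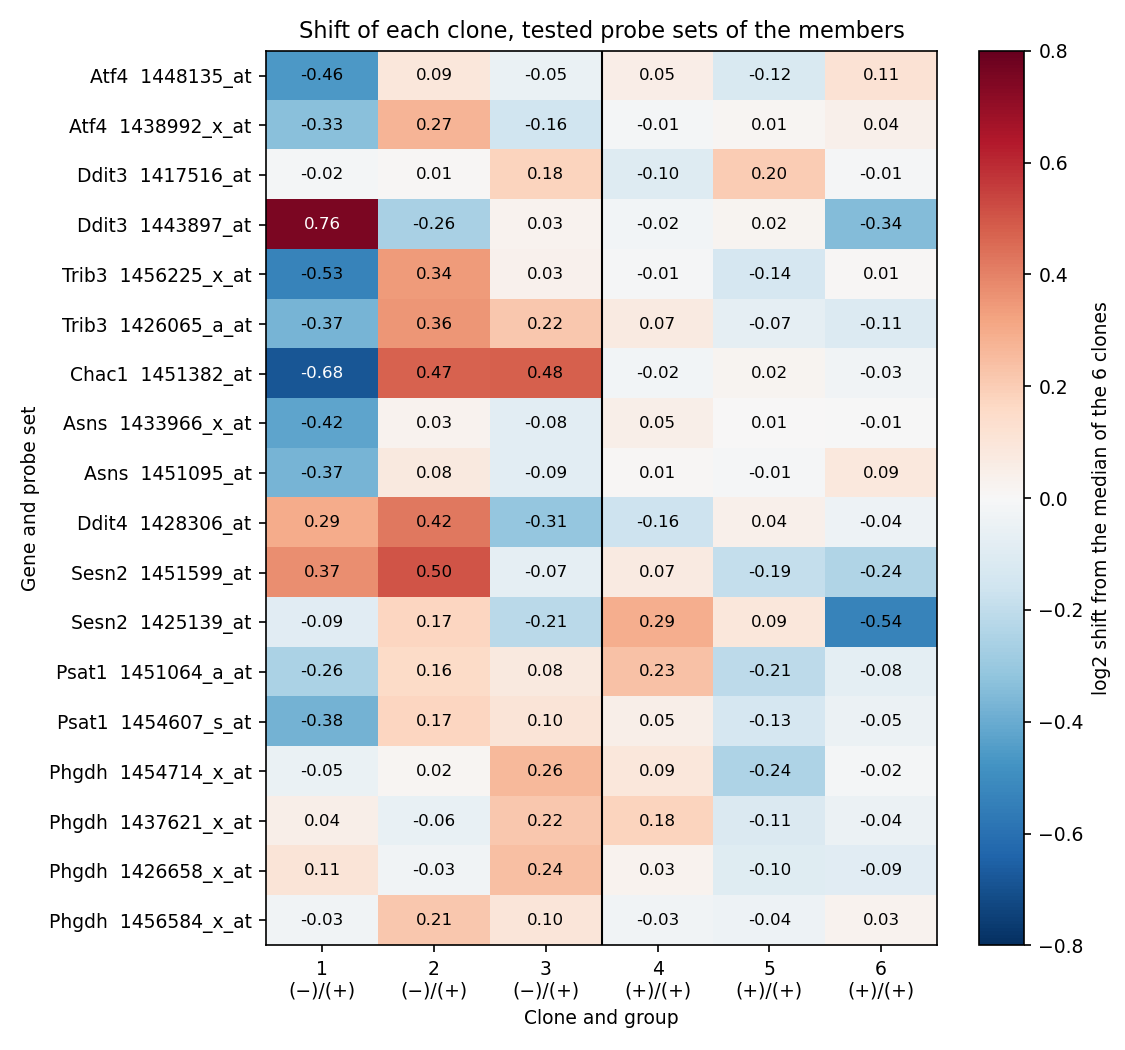
Distance of each clone (log2) from the 6-clone median (colour and printed value, blue below and red above) for the 18 tested probe sets. The column of clone 1 is blue for Atf4, Trib3, Chac1, Asns and Psat1 (-0.26 to -0.68) and red for Ddit4, for 1 of 2 Sesn2 probe sets and for the dimmer Ddit3 probe set (0.76).

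Parts of chromosomes can be gained or lost in cultured clones. Genes that lie near the members were examined because parts of chromosome 6, where Asns lies, had already been seen shifted in the (−)/(+) clones. Over the 10 nearest tested genes with a mean signal above 500 on each side, the median shift of clone 1 was between -0.06 and 0.05 for every tested member but Asns. Around Asns on chromosome 6 it was -0.22 over 18 neighbours, while Asns itself was shifted by -0.42, and 1 of the 18 was as low as Asns. The same neighbours had a median shift of 0.09 in clone 2 and -0.12 in clone 3, against -0.01 to 0.04 in the (+)/(+) clones. The cause of these shifts was not tested. None of the 20 neighbours of Atf4, of Trib3 or of Chac1 was as low as the member in clone 1, and 2 of 20 were for Psat1.

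The spread between clones was wider in the (−)/(+) group for 6 of 9 members (66.7%), against 55.4% of all tested genes, and the difference was not tested. Besides Chac1, the SD of log2 values was 0.44 against 0.08 for Trib3, 0.39 against 0.10 for Ddit4 and 0.24 against 0.03 for Asns (n = 3 each). It was wider in the (+)/(+) group for Ddit3 (0.11 against 0.15), Psat1 (0.22 against 0.23) and Phgdh (0.16 against 0.17). For Chac1, Trib3 and Asns the (−)/(+) spread includes the low clone 1, whose part was not tested.

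Co-variation was measured as Pearson's r over the 6 clones for each of the 36 pairs of tested members. The median r was 0.09, and 22 of 36 pairs were positive. An exact permutation test over the 720 pairings gave p = 0.0181 for Trib3 and Chac1 (r = 0.90, Spearman's rho 0.71 with permutation p = 0.136) and p = 0.0194 for Atf4 and Trib3 (r = 0.90, rho 0.71 with permutation p = 0.136). After Benjamini-Hochberg adjustment over the 36 pairs both permutation p-values were 0.35, and 0 pairs passed. Atf4 and Asns had the highest r, 0.92 (exact permutation p = 0.05, adjusted p = 0.425), with a rho of 0.49. With the arrays scaled to a common median, this pair had r = 0.95 (exact permutation p = 0.00972, adjusted p = 0.317), a rho of 0.94 (permutation p = 0.0167, adjusted p = 0.4) and r = 0.80 without clone 1, against 0.42 without it as deposited. Most of the other high values were lower without clone 1, while the median r over all 36 pairs was 0.32 without it. The 10 pairs among Atf4, Trib3, Chac1, Asns and Psat1, chosen after the values were seen, had r of 0.62 to 0.92 over 6 clones and of -0.46 to 0.69 without clone 1. Their median r was 0.74 over 6 clones, 0.39 without clone 1 and 0.89 with group means removed and clone 1 kept. Without the 2 clones farthest from the median of the first gene, r was 0.43 for Trib3 and Chac1, 0.29 for Atf4 and Trib3 and 0.75 for Atf4 and Asns. Outside these genes, Ddit4 and Sesn2, both restraints on mTORC1, had r = 0.75 (exact permutation p = 0.0931, adjusted p = 0.425) and 0.69 without clone 1. All genes of a clone share 1 array, so its scaling is shared too.

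**Figure D4:**
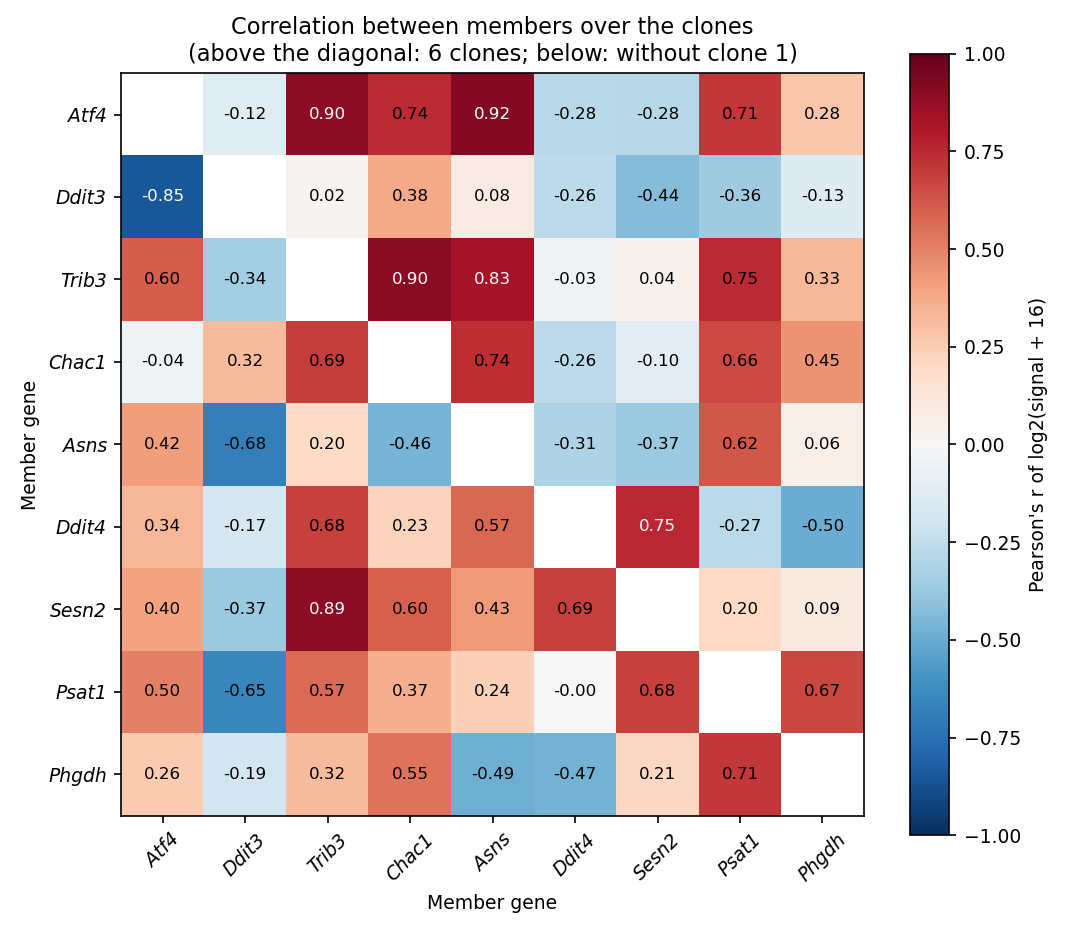
Pearson's r of log2(signal + 16) between the 9 tested members, over 6 clones above the diagonal and without clone 1 (5 clones) below it. Above the diagonal Atf4, Trib3, Chac1, Asns and Psat1 form a group of positive values (0.62 to 0.92), which is not fully kept below it (-0.46 to 0.69, median 0.39).

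The genes whose profile over the 6 clones was most like the mean standardised profile of the tested members were Rnf113a2 (r = 0.994), Skiv2l (0.991), Polr1c (0.985), Sema4b (0.984) and Pianp (0.984), of 11168 genes that are no member. This mean profile did not stand for all members alike. Its r was 0.97 with Trib3, 0.92 with Chac1, 0.81 with Psat1, 0.79 with Atf4 and 0.73 with Asns. It was 0.46 with Phgdh, 0.18 with Sesn2, 0.04 with Ddit3 and -0.03 with Ddit4. Pianp had signals from 37.6 in clone 1 to 138 in clone 2, and Polr1c from 7298 in clone 1 to 9124 in clone 2. Of the genes on the pathway lists, the highest ranks were those of Aldh18a1, an enzyme of proline synthesis, at rank 6 (r = 0.983) and Sars, the cytosolic seryl-tRNA synthetase, at rank 13 (0.974), both picked after their values were seen. The top 5 are the highest of many values over 6 clones and carry no test.

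Other genes of the pathway were counted on 11 lists with 158 tested genes between them. Of these, 3 (1.90%) passed in limma, against 2.96% of all tested genes, and the median log2 fold change was -0.06 against -0.05. Dnajb9, an endoplasmic reticulum co-chaperone induced by XBP1, rose from 1620 ± 138 to 2673 ± 158 (SD, n = 3 each), a log2 fold change of 0.72 (adjusted p = 0.0114, limma). It was the only call among 20 tested chaperones and targets of ATF6 and XBP1, and it was lost without clone 5 (adjusted p = 0.0564, limma) or clone 6 (0.0728). On that list 5 of 20 had an unadjusted p under 0.05 in limma. Gadd45a, a growth arrest gene and p53 target, rose from 1424 ± 252 to 2293 ± 427, a log2 fold change of 0.68 (adjusted p = 0.0491, limma). It was the only call among 14 tested p53 targets and was lost without clone 1, 3, 4, 5 or 6 (adjusted p = 0.0768 to 0.157, limma). Of the p53 targets, 2 of 14 had an unadjusted p under 0.05 in limma. Tyms, thymidylate synthase, had 153 ± 3.79 and 78.4 ± 17.9, a log2 fold change of -0.85 (adjusted p = 0.0492, limma). Its (+)/(+) signals, 61.1 to 96.8, were near the array medians, and the change was -0.61 with a pseudocount of 64. It was the only call among 10 tested serine, glycine and one-carbon enzymes and was lost whichever clone was left out (adjusted p = 0.0693 to 0.131, limma). Of these enzymes, 5 of 10 had an unadjusted p under 0.05 in limma, against 20.9% of all tested genes. The groups did not overlap for 5 of 10, against 26.3%, and the median log2 fold change was -0.20 against -0.05.

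No gene passed on the other lists. Upstream, 0 of 18 eIF2 kinases and translation factors passed in limma, with 5 under an unadjusted p of 0.05. Eif2s2, the β subunit of eIF2, had 25803 ± 2626 and 32527 ± 2614, and Eif2s3x, its γ subunit, had 8811 ± 413 and 9158 ± 531. Among 10 partners of ATF4 none passed in limma (2 at an unadjusted p under 0.05). Atf2, a factor of the CREB and ATF family, had 3213 ± 277 and 2906 ± 365, and Nupr1, a stress-induced chromatin protein, had 1512 ± 545 and 1482 ± 265.

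Enzymes, transporters and synthetases were alike in this respect. None of 13 enzymes of the other amino acid synthesis list passed in limma (1 at an unadjusted p under 0.05). Its brightest genes were Gpx4, a glutathione peroxidase placed on this list for its use of glutathione, with 16649 ± 455 and 20862 ± 2414, and Bcat1, a branched-chain aminotransferase, with 5831 ± 1087 and 5711 ± 510. None of 13 amino acid transporters passed (1 unadjusted), among them Slc38a2, a carrier of neutral amino acids, with 6122 ± 202 and 6660 ± 267, and Slc7a3, a carrier of cationic ones, with 3853 ± 1323 and 2775 ± 456. Of 20 tested cytosolic tRNA synthetases and tRNA export genes 0 passed in limma, with 2 under an unadjusted p of 0.05. Iars had 8793 ± 838 and 8263 ± 442, and Gars had 6826 ± 566 and 8250 ± 274.

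Stress and growth lists gave the same count. None of 11 other stress targets of ATF4 passed in limma (3 unadjusted), with Eif4ebp1, an inhibitor of cap-dependent translation, at 11928 ± 569 and 14360 ± 2864 and Map1lc3b, an autophagosome protein gene, at 7445 ± 419 and 7970 ± 1317. None of 12 NRF2 targets passed (0 unadjusted), with Gsta4, a glutathione transferase, at 11366 ± 1013 and 10789 ± 695 and Txnrd1, a thioredoxin reductase, at 3971 ± 468 and 3806 ± 499. None of 20 mTORC1 regulators passed (2 unadjusted), with Rheb, the GTPase that activates mTORC1, at 6792 ± 187 and 7998 ± 465 and Rraga, a GTPase that signals amino acids to it, at 3651 ± 389 and 4044 ± 448 (all SD, n = 3 each, (−)/(+) before (+)/(+)).

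The share of genes lowest in clone 1 differed between these lists. Of 20 tested tRNA synthetases and export genes 11 (55%) had their lowest signal in clone 1, against 16.5% of all tested genes, with a median shift of -0.11 from the median of the clones. Nars, the asparaginyl-tRNA synthetase, had 5516 in clone 1 and 6727 to 8929 in the others, and Sars had 2378 in clone 1 and 2598 to 3692 in the others. The share was 5 of 13 for the other amino acid synthesis enzymes, where Aldh18a1 had 1921 in clone 1 and 2489 to 3706 in the others. Cth, an enzyme that makes cysteine from cystathionine, had 3098 in clone 1 and 3687 to 7466 in the others. On the list of other serine, glycine and one-carbon enzymes the share was 2 of 10, with a median shift of 0.02. Psph, which completes serine synthesis, had 2543 in clone 1 and 3155 to 4532 in the others. Among the partners of ATF4, 3 of 10 were lowest in clone 1, namely Nupr1 (922 against 1285 to 1996), Atf3 (240 against 312 to 455) and Atf5 (215 against 239 to 357). These genes were chosen after their values were seen, and other genes of the same lists were highest in clone 1. The count was 0 of 20 for tRNA synthetases and export genes and 2 of 13 for the other amino acid synthesis enzymes. It was 1 of 10 for the one-carbon list (Shmt1, 3074 against 1785 to 2641) and 1 of 10 for the partners (Jun, 1858 against 866 to 1463). Of all 11177 tested genes, 2307 were highest in clone 1. The share lowest in clone 1 was 7 of 20 for mTORC1 regulators, whose median shift was 0.0024, and 8 of 20 of them were lowest in clone 4. It was 3 of 13 for amino acid transporters, 3 of 11 for other stress targets of ATF4 and 3 of 14 for p53 targets. It was 2 of 18 for eIF2 kinases and translation factors, 2 of 20 for endoplasmic reticulum chaperones and 1 of 12 for NRF2 targets. Beside these values, 5 of 14 pluripotent cell markers and 0 of 18 fibroblast markers had their lowest signal in clone 1, and the part of cell composition was not tested.

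**Figure D5:**
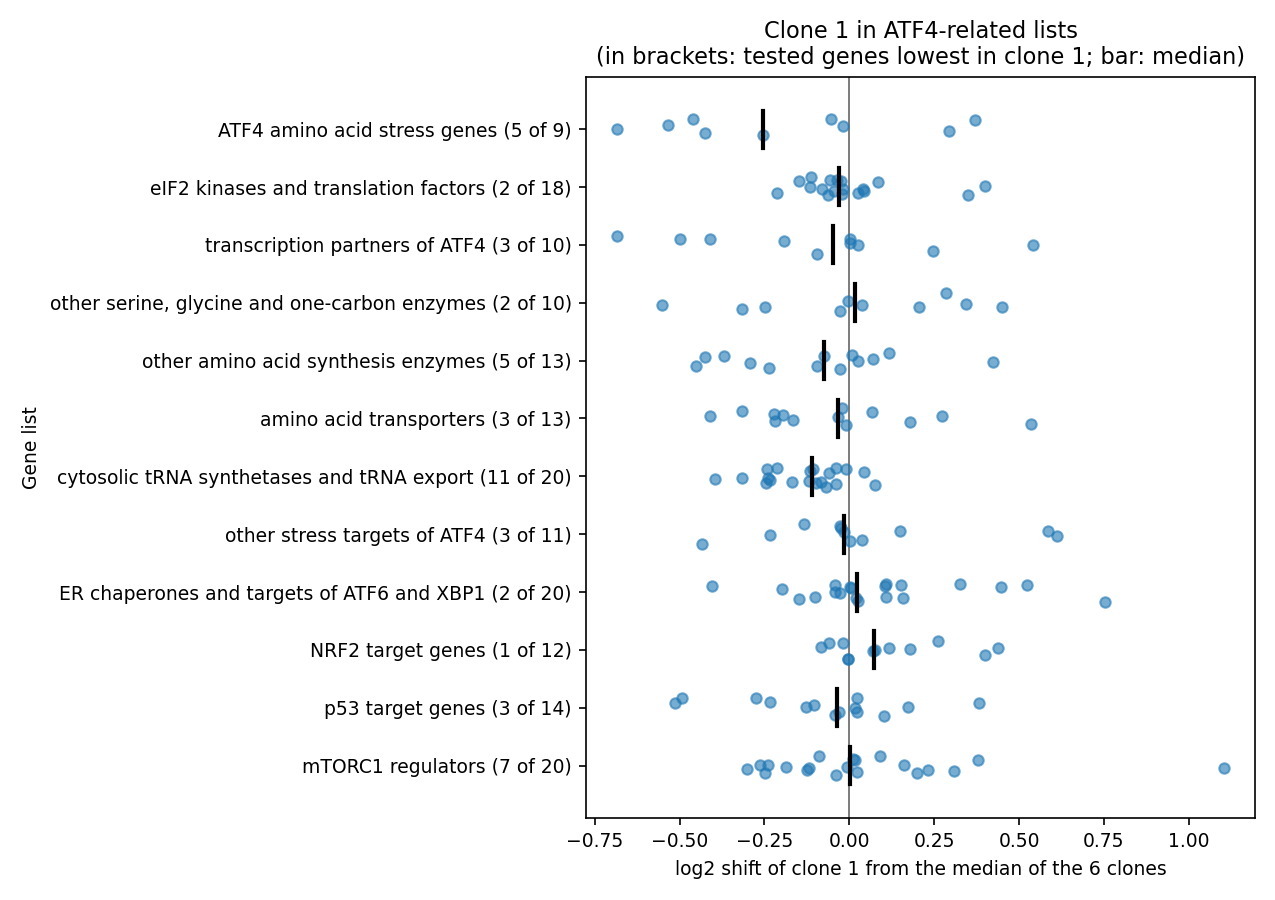
Log2 shift of clone 1 from the median of the 6 clones (horizontal axis) for each tested gene of the ATF4 amino acid stress genes and of 11 pathway lists (rows), with a bar at the median and the number of genes lowest in clone 1 in brackets. The ATF4 genes (5 of 9) and the tRNA synthetases (11 of 20) lie mostly to the left of 0, while the chaperone list (2 of 20) is spread around it.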

How the data were processed

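RNA of 6 iPSC clones, isolated with TRIzol and labelled with biotin, was measured on Affymetrix Mouse Genome arrays of 1 colour, 1 per clone. The authors quantified it by the MAS 5.0 method and deposited signal intensities on a linear scale, already scaled per array. Scaling of this kind fixes a trimmed mean and not the median, so it can move all fold changes together. After 64 control probe sets were left out of 45101, log2(signal + 16) was computed with no other normalization, and the 22518 probe sets (11177 genes) with a mean above the median were tested. Groups were compared with limma 3.58.1 (lmFit, eBayes with trend) in R 4.3.3, with Benjamini-Hochberg adjustment and calls at an adjusted p under 0.05. The brightest probe set stood for a gene. Correlations and untested probe sets were examined by exact permutation in Python 3.11.15 (scipy 1.17.1, matplotlib 3.10.9). The fit was tested on simulated data.

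The members and all lists were chosen with earlier results of these data known. Named were the members, from each list the called genes (at most 4, by adjusted p) or, on lists with no call, the 2 brightest, and the 5 genes most like the mean member profile. Any other gene is marked as picked with its values in view. Clones are separate colonies, and limma p-values set the group difference against the spread between clones. Permutation p-values compare the observed value with all regroupings or pairings of the clones. Whether the colonies came from separate infections is not given in the sources used here. Alternatives were the methods' t-test, arrayWeights, eBayes without trend, averaging the probe sets of each gene, testing every probe set or only those above a mean signal of 500, pseudocounts of 1 or 64, quantile normalization, scaling to a common median and omission of each clone.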

Additional observations from a re-analysis of the deposited data

How the results depend on the processing

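No member gene and no member probe set was called under any setting run, with adjusted p-values of the members no lower than 0.0568 (Chac1 without clone 1, limma). With a mean signal above 500, Sesn2 was not tested. Of 152 member fold changes recomputed, 132 kept their sign and 20 reversed, none of them called. Changing the filter, eBayes without trend and the methods' t-test leave the fold change as it was, so no sign could reverse there. Averaging the probe sets changed nothing for Chac1 and Ddit4, which have a single one each. Scaling to a common median moved the median log2 fold change of all tested probe sets from -0.05 to 0.10, and reversed Ddit3 (0.13), Chac1 (0.0572), Psat1 (0.15) and Phgdh (0.0272), which therefore lie around that shift. Ddit3 also reversed with quantile normalization (0.0345), Trib3 with arrayWeights (-0.0353) and with the mean of all probe sets (-0.0478), and Ddit4 with arrayWeights (0.0426). With each clone left out in turn the ranges were -0.0049 to 0.27 for Atf4, -0.11 to 0.0414 for Ddit3, -0.23 to 0.20 for Trib3, -0.48 to 0.10 for Chac1 and -0.14 to 0.0855 for Psat1. The median r over the 36 pairs was 0.09, 0.21 with group means removed, 0.38 with a common median and 0.32 without clone 1.

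Over all tested probe sets 305 were higher and 398 lower. The counts were 917 and 238 with a common median, 101 and 120 without a filter, 87 and 178 with eBayes without trend, 1015 and 1512 with arrayWeights, 0 and 1 by the methods' t-test after Benjamini-Hochberg and 1572 and 2427 by it unadjusted. Lower calls were 255 with quantile normalization and 165 with a mean signal above 500. Leaving out each clone gave 27 to 446 higher and 25 to 515 lower. The share of calls that were higher was 43.4%, against 79.4% with a common median and 52.95% with quantile normalization. Pathway genes called were 3, against 1 with quantile normalization, a pseudocount of 1, eBayes without trend, no filter, signals above 500 or the mean of all probe sets, 7 with a common median, 15 with arrayWeights, 0 by the methods' t-test after Benjamini-Hochberg and 19 by it unadjusted, and 0 to 8 with each clone left out. The cause was not tested. No paired analysis was possible because no clone number occurs in both groups.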
